A study of Mus musculus with 4 samples.

Results

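The SOX transcription factor genes Sox2, Sox3, Sox21, Sox4, Sox11, Sox12, Sox5, Sox6, Sox8 and Sox9 were followed in RNA sequencing of a mouse inner ear progenitor line and of neurons derived from it. They are 10 of the 49997 gene symbols in the count tables and were taken by symbol: the SoxB genes (Sox2, Sox3, Sox21), the SoxC genes (Sox4, Sox11, Sox12), the SoxD genes (Sox5, Sox6) and the SoxE genes (Sox8, Sox9). All 10 passed the filter on low counts, which left 12783 genes to test. The line, iMOP, is an immortalized multipotent otic progenitor, and both groups are wild-type cells of that 1 line. The proliferating cells (2 libraries) grew in DMEM/F12 with B27, carbenicillin and bFGF (20 ng/ml), a mitogen. The neurons (2 libraries) were kept in Neurobasal medium with N21, L-glutamine and K03861, which blocks the kinase CDK2, at 1 µM. Pairs of values are given as replicate 1, then replicate 2. The series' title places the comparison in a study of the chromatin remodeller CHD7 at domain boundaries during neuronal differentiation.

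SOX proteins bind a short DNA element through an HMG box, bend the DNA and act with partner factors, so that related members share sites and hand them on from one to the next as cells differentiate. In neural and sensory lineages SOX2 and SOX3 are known to hold cells as progenitors, SOX21 counters them, and SOX4 and SOX11 drive the expression of neuronal genes. SOX9 and SOX8 act in progenitors, glia and neural crest derivatives, and SOX5 and SOX6, which have no activation domain of their own, modulate them. In the inner ear SOX2 marks the prosensory and neurogenic domain, and SOX9 is needed for the otic placode to invaginate.

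The total count was 7446361 to 14484011 per library, of which the 18S ribosomal RNA gene took 53.3% to 76.1%, and 2595578 to 3850766 counts remained without it. The 18S share was higher in both replicate 2 libraries, whose titles also carry the words set 2. Proliferating replicate 2 stood apart, with 17762 genes detected against 20012 to 21637 in the other libraries. It also had the lowest summed level of 5 cycling markers, 47.2 CPM against 294.4 in proliferating replicate 1 and 374.0 and 203.8 in neuron replicates 1 and 2. The groups overlapped, and the cycling markers were not lower in neurons as a set. All 5 had a log2 fold change above 0 (neurons over proliferating cells, median 0.61), against 52.0% of all genes. In both replicate pairs 4 were higher in neurons, against 28.8% of all genes. CPM here means counts scaled to a common library size with TMM factors, a correction for differences in RNA make-up between libraries. Of 11 neuronal markers, 10 were tested and 2 had both neuron libraries above both proliferating ones, against 12.9% of all genes. Their summed level was 161.5 and 347.8 CPM in the proliferating libraries against 201.7 and 364.1 CPM in the neuron libraries, so the summed level overlapped between the groups. Of 9 otic progenitor markers, Pax2 and Pax8 were at 0 counts in every library, and only Eya1 and Jag1 were tested.

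On GRCm38, which is the mm10 build named in the submitters' processing notes, RefSeq places Sox2 at chr3:34649995-34652461, Sox3 at chrX:60891366-60893430 and Sox21 at chr14:118233233-118237030. The SoxC genes are Sox4 at chr13:28948919-28953699, Sox11 at chr12:27334268-27342718 and Sox12 at chr2:152393611-152398046. Sox5 spans chr6:143828425-144782287 and Sox6 chr7:115470872-116040776, while Sox8 lies at chr17:25565893-25570686 and Sox9 at chr11:112782210-112787757. In GENCODE release M21, Sox2, Sox3, Sox21, Sox4 and Sox11 have 1 exon, Sox8 and Sox9 have 3, Sox5 has up to 15 and Sox6 up to 17. Exons of Sox21, Sox4, Sox5 and Sox8 overlap an antisense gene there. Whether the counting used strand is not given in the sources used here, so reads of such a pair may not be told apart. Of these antisense genes only Gm4675, opposite Sox21, has a row in the tables, with 3 to 5 counts per library.

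The RefSeq promoter table of GRCm38.p6 holds 8 of the 10 genes. The 250 bases before the annotated start are shown for the SoxB gene Sox2, for both SoxC genes that were higher in neurons in each replicate pair, and for Sox8, whose neuron libraries both lay below the proliferating ones. Letters are in lower case, with capitals for the SOX elements ACAATG and ACAAAG and for the CCAAT box, each on either strand.
Sox2 (chr3:34649745-34649994, plus strand): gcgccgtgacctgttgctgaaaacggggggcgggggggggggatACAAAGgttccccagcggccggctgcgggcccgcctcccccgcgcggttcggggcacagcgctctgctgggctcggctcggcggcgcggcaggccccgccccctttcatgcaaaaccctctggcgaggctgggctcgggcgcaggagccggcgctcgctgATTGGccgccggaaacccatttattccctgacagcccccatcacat
Sox4 (chr13:28953700-28953949, minus strand): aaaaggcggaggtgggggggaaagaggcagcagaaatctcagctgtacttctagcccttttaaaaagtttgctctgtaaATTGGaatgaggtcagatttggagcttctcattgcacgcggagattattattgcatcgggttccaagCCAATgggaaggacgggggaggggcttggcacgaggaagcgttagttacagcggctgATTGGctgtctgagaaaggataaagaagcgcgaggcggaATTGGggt
Sox11 (chr12:27342719-27342968, minus strand): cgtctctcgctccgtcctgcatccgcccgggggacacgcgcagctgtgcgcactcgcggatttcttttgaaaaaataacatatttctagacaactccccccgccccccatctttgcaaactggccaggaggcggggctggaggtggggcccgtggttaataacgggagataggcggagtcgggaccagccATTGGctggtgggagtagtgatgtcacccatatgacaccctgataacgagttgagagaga
Sox8 (chr17:25570687-25570936, minus strand): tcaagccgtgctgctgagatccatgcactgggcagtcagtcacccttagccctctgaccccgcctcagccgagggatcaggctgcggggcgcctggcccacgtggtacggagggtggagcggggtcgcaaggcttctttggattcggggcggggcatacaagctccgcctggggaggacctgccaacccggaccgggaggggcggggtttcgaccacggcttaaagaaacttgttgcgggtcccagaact
The Sox2 window holds 1 SOX element, 206 bases before the start, and 1 CCAAT box at 46 bases. The Sox4 window holds 4 CCAAT boxes and no SOX element, the Sox11 window holds 1 CCAAT box at 60 bases, and the Sox8 window holds neither. No matches overlap in these 4 windows. Of the 7 genes with 1 promoter in the table, 4 hold a CCAAT box and 2 a SOX element, against 33.8% and 25.2% of all 32851 promoters of the same length. These matches describe letters and are not sites of binding. The base composition of the windows differs, from 50.8% G and C in Sox4 to 72.0% in Sox2.

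The comparison asked how the SOX genes of the progenitor state and of the neuronal state differ between the cultures. None of the 10 passed the test: edgeR's quasi-likelihood test with Benjamini-Hochberg adjustment over all 12783 genes called 0 SOX genes higher and 0 lower in neurons, where it called 0.0% of all genes. Every SOX gene had an adjusted p-value of 0.9998. Before adjustment 2 of 10 lay under 0.05, Sox5 higher and Sox8 lower, against 3.43% of all genes (0.915% higher, 2.51% lower). DESeq2 called 0.462% of all genes but 0 SOX genes, with 3 of the 10 under an unadjusted 0.05 against 3.73% of all genes. With the replicate number as a block, 0 of 10 were called against 0.0235% of all genes, and Sox5, Sox8 and Sox9 lay under an unadjusted 0.05 against 6.18%. Leaving out 1 library at a time called 0 SOX genes in each of the 4 fits, in which the arm left with 1 library is assumed to vary like the other. Without proliferating replicate 1, Sox21, Sox5, Sox8 and Sox9 lay under an unadjusted 0.05, where 19.7% of all genes did and 0.994% were called. Without proliferating replicate 2 it was Sox6 alone (3.9% of all genes, 0.125% called), without neuron replicate 1 Sox9 alone (2.66%, 0.211% called) and without neuron replicate 2 Sox5 alone (3.25%, 0.102% called). With 2 libraries against 2, an exact permutation of 1 value cannot give a two-sided p below 0.333. p-values measure the spread between samples labelled biological replicates, and the labels do not say what separates them.

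**Figure D1:**
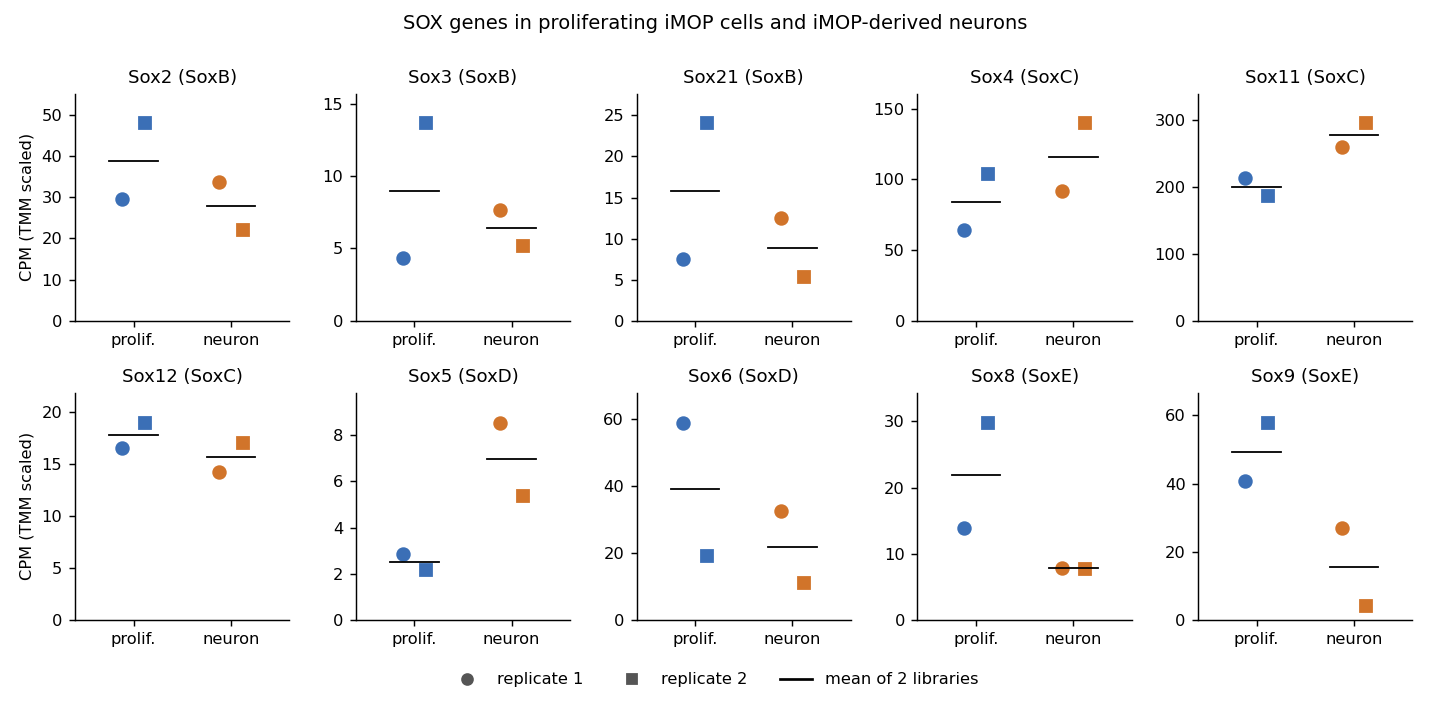
Level of each SOX gene in CPM (TMM scaled, vertical axis from 0) in the 2 proliferating and the 2 neuron libraries, with circles for replicate 1, squares for replicate 2 and a line at the mean. Sox11 and Sox5 lie higher and Sox8 and Sox9 lower in both neuron libraries, and the groups overlap for the other 6.

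By library, 2 SOX genes (Sox11 and Sox5) had both neuron values above both proliferating values, and 2 (Sox8 and Sox9) had both below. Among all tested genes 12.9% and 14.5% did so. In replicate pairs, 3 SOX genes were higher in neurons in both (Sox4, Sox11, Sox5), 4 were lower in both (Sox12, Sox6, Sox8, Sox9), and the 3 SoxB genes went opposite ways. The shares of all genes were 28.8% higher and 25.5% lower in both pairs. Since these shares are not small, the counts describe the genes and carry no test. The median log2 fold change of the 10 genes was -0.48, beside 0.024 for all tested genes. Its sign turned between the pairs, with a median log2 difference of 0.23 for replicate 1 and -0.96 for replicate 2.

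Sox2, the progenitor and prosensory factor, had 362 and 355 counts in the proliferating libraries against 402 and 216 in neuron replicates 1 and 2. Its levels were 29.7 and 47.9 CPM before and 33.7 and 21.96 CPM after differentiation. The neuron values straddled the lower proliferating value, so the groups overlapped. Group means were 38.8 ± 12.9 CPM before and 27.8 ± 8.32 CPM after differentiation (SD, n = 2 each). Taken as neurons over proliferating cells, the log2 fold change of Sox2 was -0.48 (SE 0.49, 95% interval -1.63 to 0.68). The replicate 1 pair gave 0.18, the replicate 2 pair -1.12, and the fit that left out proliferating replicate 2 gave -0.09. Sox2 lies in an intron of the noncoding gene Sox2ot on the same strand, and Sox2ot had 80 and 16 counts in the proliferating libraries against 144 and 22 in the neuron libraries. The Sox2ot level thus followed the replicate numbers, with the replicate 1 libraries high in each group.

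Sox3, the X-linked relative of Sox2, was at 4.34 and 13.6 CPM in the proliferating libraries against 7.63 and 5.18 CPM in the neuron libraries. Sox21, the SoxB member that opposes SOX2, was at 7.46 and 24.0 CPM in the proliferating libraries against 12.5 and 5.29 CPM in the neuron libraries. In both genes proliferating replicate 1 was low and proliferating replicate 2 was the highest library, and the neuron values lay between them, except Sox21 in neuron replicate 2, which was the lowest. Their log2 fold changes were -0.47 (SE 0.64) and -0.81 (SE 0.71), with 95% intervals from -1.97 to 1.02 and from -2.47 to 0.84. Both turned positive without proliferating replicate 2, at 0.56 for Sox3 and 0.26 for Sox21, and Sox3 was at 0.038 after correction for GC content. The gap between the proliferating replicates was 1.61 for Sox3 and 1.66 for Sox21 on the log2 scale, larger than the difference between the groups. The ratio of Sox3 to Sox21 counts was 0.582 and 0.567 in the proliferating libraries, 0.611 in neuron replicate 1 and 0.981 in neuron replicate 2, so these genes kept a like ratio in 3 of the 4 libraries.

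The SoxC genes are the class tied to neuronal gene expression. Sox11 had 2598 and 1376 counts in the proliferating libraries against 3092 and 2895 counts in the neuron libraries. Its level was 212.9 and 185.7 CPM in the proliferating libraries against 259.4 and 294.3 CPM in the neuron libraries. Both neuron libraries were above both proliferating libraries, with means of 276.8 ± 24.7 and 199.3 ± 19.2 CPM (SD, n = 2 each). This is a log2 fold change of 0.47 (SE 0.40), whose 95% interval ran from -0.47 to 1.41. Sox4, which often acts beside SOX11, was at 64.1 and 104.1 CPM in the proliferating libraries against 91.4 and 139.6 CPM in the neuron libraries. Each pair showed the higher value in the neurons, but neuron replicate 1 lay below proliferating replicate 2. Sox4 had a log2 fold change of 0.46 (SE 0.48, 95% interval -0.67 to 1.59), with 0.85 when proliferating replicate 2 was left out and 0.12 when either proliferating replicate 1 or neuron replicate 2 was.

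Sox12, the remaining SoxC gene and a weaker activator than its relatives, had the estimate nearest to 0. It was at 16.6 and 19.0 CPM in the proliferating libraries against 14.3 and 17.1 CPM in the neuron libraries, which overlap. Sox12 had a log2 fold change of -0.18 (SE 0.45), whose 95% interval ran from -1.24 to 0.88. With the GC correction its sign turned, at 0.083.

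**Figure D2:**
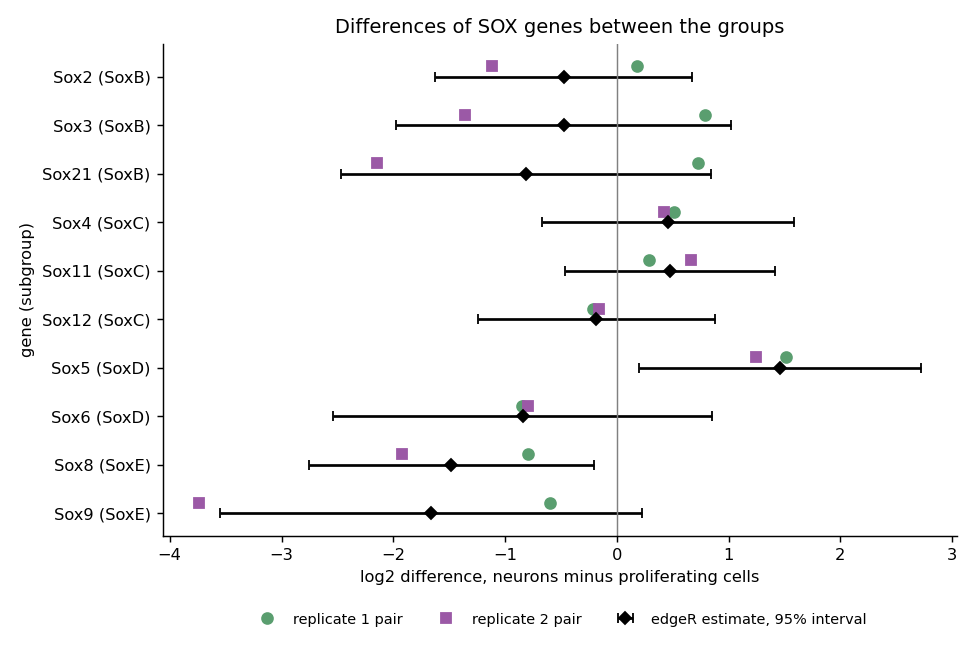
Log2 difference of each SOX gene, neurons minus proliferating cells: black diamonds give the edgeR estimate with its 95% interval, circles the replicate 1 pair and squares the replicate 2 pair. The intervals of Sox5 and Sox8 leave out 0 before adjustment, and the pair values of the 3 SoxB genes lie on both sides of 0.

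The SoxD genes went in different directions. Sox5, which is counted at low depth here, had 35 and 16 counts in the proliferating libraries against 102 and 53 in the neuron libraries. The exact 95% Poisson interval of the lowest count runs from 9.14 to 26.0, and it covers counting error only. In levels these are 2.87 and 2.16 CPM against 8.56 and 5.39 CPM, and the groups did not overlap. Sox5 was 2.75-fold higher in neurons (log2 fold change 1.46, SE 0.54, 95% interval 0.20 to 2.72), with an unadjusted p of 0.0285 in edgeR. The replicate pairs gave 1.51 and 1.25. Sox6, its closest relative, was at 59.1 and 19.0 CPM in the proliferating libraries against 32.7 and 10.9 CPM in the neuron libraries. The replicate 1 library was the higher one in each group, by 1.62 in proliferating cells and 1.57 in neurons on the log2 scale. Within pairs the neurons were lower by nearly the same amount, with log2 differences of -0.85 and -0.80. For Sox6 edgeR gave -0.84 (SE 0.72), which turned to 0.19 when proliferating replicate 1 was left out and to -1.88 when neuron replicate 1 was. The ratio of Sox5 to Sox6 counts, which needs no scaling between libraries, was 0.0485 and 0.114 in the proliferating libraries against 0.262 and 0.495 in the neuron libraries. That ratio was above both proliferating values in both neuron libraries. The Sox11 to Sox2 ratio also separated, at 7.18 and 3.88 in the proliferating libraries against 7.69 and 13.4 in the neuron libraries. That of Sox11 to Sox4 overlapped, at 3.32 and 1.785 against 2.84 and 2.11. Ratios of gene pairs outside the SOX genes were not computed. An exact permutation of 2 libraries against 2 cannot give a two-sided p below 0.333. Such separations are thus descriptions.

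Of the SoxE genes, Sox9 is the otic and glial progenitor factor. It had 496 and 429 counts in proliferating replicates 1 and 2, 320 in neuron replicate 1 and 41 in neuron replicate 2. Its level was 40.6 and 57.9 CPM in the proliferating libraries against 26.8 and 4.17 CPM in the neuron libraries. Both neuron libraries were lower, neuron replicate 2 by far the most. The log2 fold change of Sox9 was -1.66 (SE 0.81, 95% interval -3.55 to 0.23; unadjusted edgeR p 0.0763). The replicate 1 pair differed 1.51-fold and the replicate 2 pair 13.3-fold. Leaving out neuron replicate 2 gave -0.88 and leaving out neuron replicate 1 gave -3.60, so neuron replicate 2 sets the size of the difference.

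Sox8, which overlaps SOX9 in function in many tissues, was at 13.8 and 29.8 CPM in the proliferating libraries against 7.89 and 7.73 CPM in the neuron libraries. The neuron libraries were alike and both lay below the proliferating ones. Sox8 was 2.79-fold higher in proliferating cells (log2 fold change -1.48, SE 0.55, 95% interval -2.76 to -0.20), with an unadjusted p of 0.0286 in edgeR. Leaving out proliferating replicate 2 gave -0.83, and leaving out proliferating replicate 1 gave -1.96. Sox8 keeps a lower value in both neuron libraries under each scaling tried, and so does Sox9.

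Glial lineages also use SoxE genes, so their markers are given beside them. Of 10 oligodendrocyte and Schwann markers, 3 were tested and 0 called. Olig2 had 48 and 445 counts in the proliferating libraries against 10 and 5 in the neuron libraries, and Olig1 had 31 and 167 against 3 and 4. Pdgfra, the other tested marker, had 119 and 66 counts against 200 and 70, with a log2 fold change of 0.36 and overlapping groups. Sox10, the remaining SoxE gene and a defining marker of these lineages, had 0 to 2 counts in any library, Mbp had 0 to 2, and Foxd3 had 0 throughout. The summed level of that list was 17.9 and 92.9 CPM in the proliferating libraries against 18.7 and 8.64 CPM in the neuron libraries, which overlap. For 7 astroglial markers it was 176.3 and 120.1 CPM in the proliferating libraries against 83.1 and 69.2 CPM in the neuron ones. Of these, 5 were tested and 0 called, and 3 had both neuron libraries lower, against 14.5% of all genes. Slc1a2 went the other way, at 16.96 and 9.04 CPM against 15.1 and 51.5 CPM, and Aqp4 was high only in proliferating replicate 1, with 356 counts against 2, 31 and 5. Proliferating replicate 2 was the highest library for Olig1 and Olig2, and in CPM also for Sox8, Sox9, Sox2, Sox3, Sox21 and Sox12. The summed level of 6 hair cell markers was 23.8 and 18.9 CPM in the proliferating libraries against 4.61 and 22.1 CPM in the neuron libraries. The defining genes Pou4f3 and Otof were at 0, but Myo6 and Atoh1 were tested. Myo6 was at 20.97 and 16.3 CPM against 4.53 and 12.4 CPM, lower in both neuron libraries. Atoh1 had 17 and 18 counts against 1 and 91, so only neuron replicate 2 was high. The summed level of 5 mesenchyme markers lay between 0.813 and 1.22 CPM. The part of such cells in the SoxE levels was not tested, and in bulk RNA fewer cells of a type and less RNA per cell cannot be told apart.

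**Figure D3:**
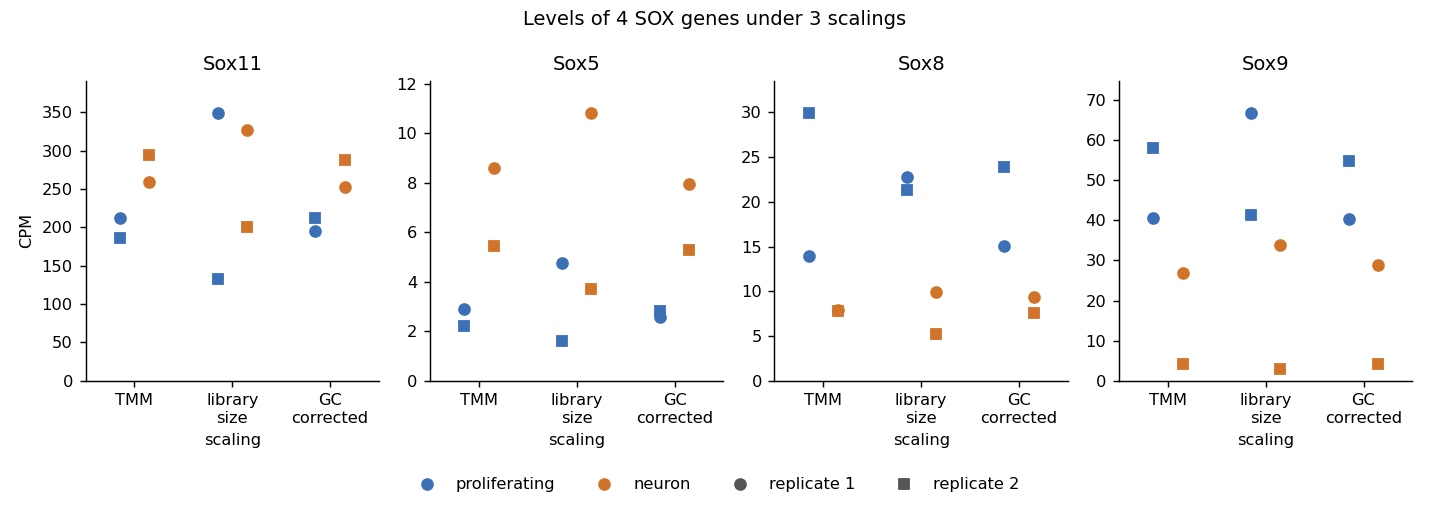
CPM of Sox11, Sox5, Sox8 and Sox9 (vertical axes from 0, with 0.5 added to each count) under TMM scaling, library size alone and TMM with a correction for GC content; blue marks proliferating libraries, orange marks neurons, circles replicate 1 and squares replicate 2. With library size alone the groups of Sox11 and Sox5 overlap, while those of Sox8 and Sox9 stay apart.

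How far the groups separate depends on the scaling for the genes that were higher. With library size alone, Sox11 stood at 349.0 and 132.6 CPM in the proliferating libraries against 326.4 and 199.9 CPM in the neuron libraries, and its groups overlapped. Sox5 stood at 4.77 and 1.59 CPM against 10.8 and 3.69 CPM and also overlapped. Under this scaling 1.72% of all genes had both neuron libraries higher and 18.4% had both lower, and the median log2 fold change of all genes shifted by -0.29. Sox11 and Sox5 then had log2 fold changes of 0.13 and 1.21. With the GC correction Sox4 joined Sox11 and Sox5, so 3 of 10 were higher in both neuron libraries, against 16.6% of all genes. The GC content of the longest transcript ranged from 44.8% in Sox5 to 66.4% in Sox3, and Sox3 and Sox12 (59.9%) were the genes whose sign turned under that correction.

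Ratios of counts within a library do not depend on scaling between libraries. The SoxC genes made up 65.02% and 61.4% of the counts of the 10 SOX genes in the proliferating libraries against 73.8% and 88.2% in the neuron libraries. The SoxE share was 12.1% and 17.4% in the proliferating libraries against 7.02% and 2.33% in the neuron libraries. Both shares separated the groups. In CPM the SoxC genes summed to 301.2 ± 10.9 in proliferating cells and 408.0 ± 60.7 in neurons, and the SoxE genes to 71.1 ± 23.5 and 23.3 ± 16.1 (SD, n = 2 each). The SoxB share did not, at 9.19% and 17% in proliferating cells and 10.9% and 6.34% in neurons, nor did the SoxD share, at 13.7% and 4.21% against 8.34% and 3.18%. The summed level of all 10 genes was 451.4 and 503.3 CPM in the proliferating libraries against 494.9 and 511.5 CPM in the neuron libraries, and the groups overlapped. Shares of other gene sets were not computed, so the separation of the SoxC and SoxE shares is a description.

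**Figure D4:**
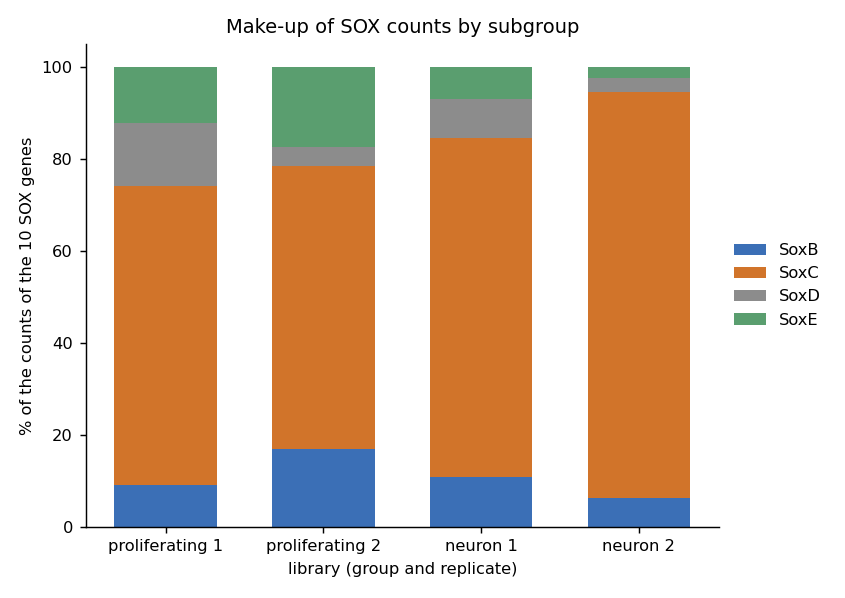
Share of the summed counts of the 10 SOX genes (vertical axis, percent) held by SoxB, SoxC, SoxD and SoxE genes in each of the 4 libraries. SoxC holds 61.4% to 65.02% in the proliferating libraries and 73.8% to 88.2% in the neuron libraries.

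SoxC counts were 5.39 and 3.52 times the SoxE counts in the proliferating libraries against 10.5 and 37.9 times in the neuron libraries. That ratio was higher in neurons in both pairs, with log2 differences of 0.97 and 3.43. SoxB counts were 0.761 and 0.975 times the SoxE counts in the proliferating libraries against 1.55 and 2.73 times in the neuron libraries, with no overlap. Per length the SoxB sum was the larger in all 4 libraries: the same ratio from the deposited RPKM was 1.116 and 1.353 in the proliferating libraries, then 2.269 and 3.575 in the neuron libraries. The SoxB sum also holds Sox21, whose product counters SOX2 and SOX3, so it is not purely a progenitor class. The ratio of SoxC to SoxB was 7.08 and 3.61 in the proliferating libraries against 6.78 and 13.9 in the neuron libraries. These values overlap: the log2 ratio differed by -0.0625 for replicate 1 and by 1.95 for replicate 2. Its mean difference was 0.94, which was 0.42 without neuron replicate 2, 0.46 without proliferating replicate 2 and 1.46 without neuron replicate 1. SoxE counts were 0.880 and 4.14 times the SoxD counts in the proliferating libraries against 0.842 and 0.731 times in the neuron libraries. These values did not overlap, though the replicate 1 pair differed by only -0.064 in log2. The ratios of SoxC to SoxD and of SoxB to SoxD overlapped. Ratios of other gene sets were not computed, so these separations carry no test.

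Levels of different genes were compared as CPM per kilobase of merged GENCODE exons. The deposited RPKM uses a length of 453332 bases for Sox6 and 155366 for Sox5, against merged exons of 14832 and 14376 bases, so it puts these genes lower. The annotation used for counting is not given, so which length matches the counted reads is not known. The places of Sox6 and Sox5 in the order below rest on the exon length. In proliferating cells the order was Sox11 (24.0 ± 2.31 CPM per kilobase), Sox2 (18.9 ± 6.28), Sox4 (17.5 ± 5.90), Sox9 (11.9 ± 2.95), Sox8 (7.004 ± 3.625), Sox3 (4.35 ± 3.18), Sox21 (4.14 ± 3.08), Sox12 (3.995 ± 0.394), Sox6 (2.63 ± 1.91) and Sox5 (0.175 ± 0.0349), each as SD with n = 2. Only the steps from Sox9 to Sox8 and from Sox6 to Sox5 had libraries that did not overlap. In neurons Sox11 (33.3 ± 2.97 CPM per kilobase) stood above Sox4 (24.1 ± 7.10), Sox4 above Sox2 (13.5 ± 4.05) and Sox2 above Sox9 (3.75 ± 3.88), with no overlap at these steps. From Sox9 down to Sox6 (1.47 ± 1.04) neighbours overlapped, and Sox5 (0.485 ± 0.156) was again the lowest. Among the 11597 genes with an exon length, Sox9 stood at the percentiles 93.6 and 94.1 in the proliferating libraries against 89.1 and 36.6 in the neuron libraries. Among the 10 SOX genes alone, Sox2 ranked 2 and 1 in the proliferating libraries and 3 in both neuron libraries.

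Of the other SOX genes, Sry, Sox7, Sox17 and Sox30 had 0 counts in every library, and only 2 of the 10 were tested. Sox1, a SoxB progenitor gene, was at 28.2 and 24.8 CPM in the proliferating libraries against 23.7 and 32.4 CPM in the neuron libraries, with overlapping groups. Sox1 had a log2 fold change of 0.082 (SE 0.45). Sox13, the remaining SoxD gene, was at 1.72 and 7.15 CPM in the proliferating libraries against 1.84 and 0.813 CPM in the neuron libraries, and only proliferating replicate 2 was high. Sox18, an endothelial factor, had 28 counts in proliferating replicate 2 and 0, 1 and 4 in proliferating replicate 1 and neuron replicates 1 and 2.

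Genes whose profile over the 4 libraries lay closest were sought among the 7285 tested genes whose mean count reached 50, by the root mean square distance of centred log2 CPM. For Sox9 the nearest were Hes1 (distance 0.137), a Notch target that holds progenitors, Sparc (0.173), a matrix glycoprotein gene, and Ptn (0.344), which encodes a secreted growth factor. Hes1 had 88 and 95 counts in the proliferating libraries against 63 and 8 in the neuron libraries. Sparc had 376 and 411 counts against 261 and 42. For Sox2 they were Phlpp1 (0.0536), Rps27l (0.0612) and Dot1l (0.0654), and for Sox11 Gm25431 (0.0212), Dhx57 (0.0271) and Trmt1 (0.0295). Profiles hold only 4 values each, and the genes nearest to Sox9 lay further off than those nearest to Sox2 and Sox11. Nearness is thus a description.

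Of 13 progenitor genes linked to SOX2 or SOX9, 11 were tested and 0 were called. A log2 fold change below 0 was seen for 10 of the 11, against 48.0% of all genes, with a median of -1.47 beside 0.024. At an unadjusted edgeR p under 0.05 there were 4, all lower (Vim, Gfap, Egfr and Ccnd1), against 2.51% of all genes. Vim was at 258.4 and 936.6 CPM in the proliferating libraries against 234.9 and 197.9 CPM in the neuron libraries. Like Ccnd1, it was high in proliferating replicate 2 alone. Both neuron libraries lay below both proliferating ones for 7, against 14.5%. This list and those below were chosen with earlier results of these data known, so such counts describe the genes and carry no test. Gfap, Slc1a3 and Fabp7 are also among the astroglial markers above, so the counts of these lists are not independent. Gfap, the astroglial filament gene and a SOX9 target, had 181 and 89 counts in the proliferating libraries against 1 and 2 in the neuron libraries. It is the only gene of the list called with the replicate number as a block (edgeR adjusted p-value 0.0158). Egfr, a receptor of progenitor growth, was at 22.7 and 35.2 CPM in the proliferating libraries against 5.96 and 5.49 CPM in the neuron libraries, lower in each. Fabp7, a radial glial lipid binding protein gene, had 272 and 362 counts in the proliferating libraries, 211 in neuron replicate 1 and 9 in neuron replicate 2, with the lowest value in neuron replicate 2, as for Sox9. Nes, a filament gene with a SOX2-bound enhancer, went opposite ways, with log2 differences of 0.32 for replicate 1 and -2.52 for replicate 2, as for Sox2.

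**Figure D5:**
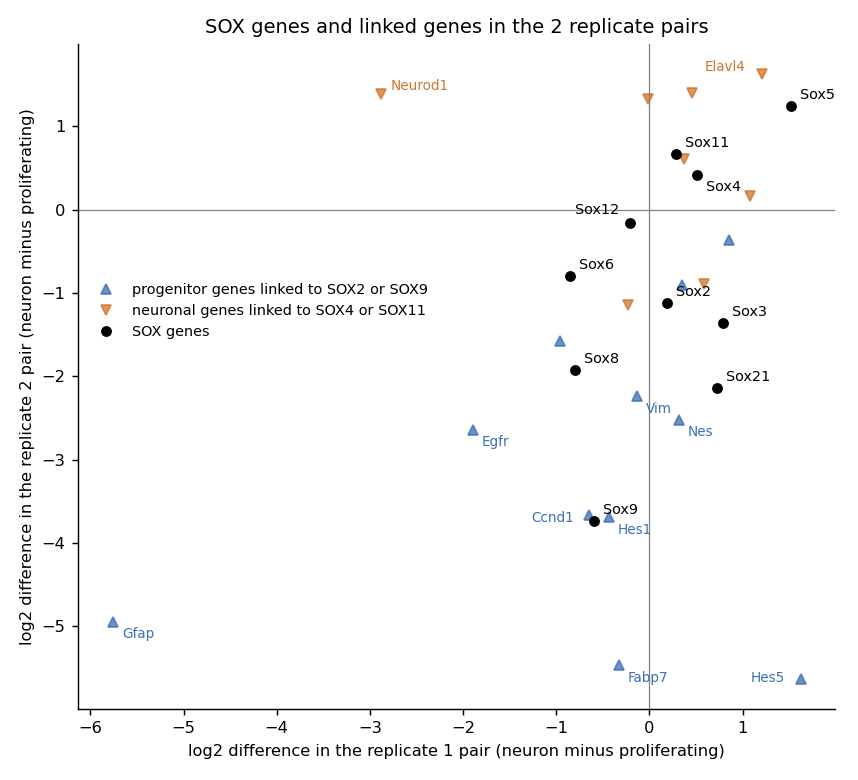
Log2 difference in the replicate 1 pair (horizontal) against the replicate 2 pair (vertical), neurons minus proliferating cells, for the SOX genes (black), tested progenitor genes linked to SOX2 or SOX9 (blue) and tested neuronal genes linked to SOX4 or SOX11 (orange). Sox9 lies beside Hes1 and Ccnd1, with small differences in the replicate 1 pair and differences near -3.7 in the replicate 2 pair. The library levels of Ccnd1 differ from those of Sox9: it was high in proliferating replicate 2 alone. It stood at 8.11 and 62.6 CPM in the proliferating libraries against 5.12 and 4.78 CPM in the neuron libraries.

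Of 9 neuronal genes linked to SOX4 or SOX11, 8 were tested, 0 were called, and 5 had a log2 fold change above 0, against 52.0% of all genes, with a median of 0.53. Both neuron libraries were above both proliferating ones for 4 (Tead2, Map2, Elavl4 and Prox1), against 12.9% of all genes. Tubb3, Dcx, Stmn2, Map2 and Elavl4 are also among the neuronal markers above, so the counts of these lists are not independent. The 2 neuronal markers higher in both neuron libraries were the same Map2 and Elavl4. Elavl4, a neuronal RNA-binding protein gene, had the only unadjusted p under 0.05 (0.0312), with 7.54 and 12.2 CPM in the proliferating libraries against 17.7 and 37.9 CPM in the neuron libraries. Tubb3, a neuronal tubulin and SOX4 and SOX11 target, was at 19.1 and 193.0 CPM in the proliferating libraries against 28.7 and 104.3 CPM in the neuron libraries, so it followed the replicate numbers. Dcx, a microtubule protein gene of young neurons, was at 22.9 and 15.4 CPM against 22.6 and 38.9 CPM, higher only in neuron replicate 2.

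Of 14 SOX partners and regulators, 9 were tested and 0 called, with a median of 0.073. Both neuron libraries lay above both proliferating ones for 3 (Chd7, Pax6 and Eya1), against 12.9% of all genes. They lay below for 2 (Jag1 and Ctnnb1), against 14.5%. Chd7, which encodes a remodeller that binds SOX2, was at 106.9 and 100.7 CPM in the proliferating libraries against 130.8 and 122.1 CPM in the neuron libraries. Eya1, an otic cofactor, had both neuron libraries higher, at 8.64 and 5.79 CPM against 5.08 and 3.65 CPM, and Jag1, a Notch ligand upstream of Sox2 in the ear, had both lower, at 26.6 and 14.7 CPM against 28.5 and 31.3 CPM. Pou3f3, a POU partner of SOX proteins, went opposite ways in the pairs. Of 9 cartilage genes that SOX9, SOX5 and SOX6 activate in chondrocytes, 3 were tested and 0 called. All 3 had a log2 fold change below 0 (48.0% of all genes), and 2 had both neuron libraries lower (14.5%). Those 2 were Col11a1, with 251 and 72 counts in the proliferating libraries against 97 and 76, and the scarce Col11a2, with 19 and 7 against 10 and 9. Col9a3 overlapped, with 154 and 84 counts against 75 and 150. Col2a1, the defining gene of that list, had 0 counts in both proliferating libraries and 3 and 1 in the neuron libraries, and Matn1 and Hapln1 had 0 throughout.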

How the data were processed

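Total RNA of 4 cultures was depleted of ribosomal RNA (500 ng input) and made into stranded libraries, per the labels' protocols. The authors deposited raw counts and RPKM values per gene symbol. Per the submitters' processing notes, HISAT2, SAMtools and featureCounts were among the tools and mm10 the build. The annotation, the strand setting and the treatment of reads with several matches are not given in the sources used here. Each deposited RPKM equals the count divided by the column total and by 1 length per gene.

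Groups and replicate numbers come from the sample titles. Counts were tested with edgeR 4.0.16 (R 4.3.3): TMM, filterByExpr (minimum count 10, minimum total 15), glmQLFit and glmQLFTest, two-sided, with Benjamini-Hochberg adjustment over 12783 genes and calls under 0.05. Pair differences use log2 CPM with a prior count of 2. Both replicate 2 titles name set 2, so the numbers were taken to pair libraries, whose deviations correlated across genes at r = 0.33. The fit with that block was an alternative, as were RLE, library size alone, DESeq2 1.42.0, other filters, the 18S row left out, limma-trend (limma 3.58.1) on log2(RPKM + 1) and log2(RPKM + 0.1), GC correction (lowess span 0.3, 11597 genes) and leaving out each library. The method was tested on simulated counts. Named genes are the SOX genes, gene lists and marker lists linked to them, and the 3 nearest profiles of Sox2, Sox9 and Sox11. The members and lists were chosen with earlier results of these data known.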

Additional observations from a re-analysis of the deposited data

How the results depend on the processing

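In every planned setting 0 SOX genes were called higher and 0 lower, the replicate block (0 and 0) and the fits without a library included, with a lowest adjusted p-value of 0.069 for Sox8 without proliferating replicate 1, a fit whose lone proliferating library is assumed to vary like the neuron libraries. Over all genes the settings differed: higher and lower calls were 0 and 0 in the main analysis, 12 and 47 with DESeq2, 41 and 122 of 25859 genes with no gene filter, 0 and 3 with the replicate block or the GC correction, 14 and 47 with both, 0 and 2 with library size alone or log2(RPKM + 0.1), 0 and 1 with log2(RPKM + 1), 37 and 90 without proliferating replicate 1, 1 and 15 without proliferating replicate 2, 5 and 22 without neuron replicate 1, and 4 and 9 without neuron replicate 2. The replicate block changed no call of a SOX gene, and its lowest adjusted p-value was 0.578, for Sox9 at a log2 fold change of -2.13. Signs turned for 4 genes: Sox3 (0.038 with the GC correction, 0.0145 with the GC correction and the replicate block, and -1.10 to 0.56 without 1 library), Sox12 (0.083 and 0.096 in the same GC settings), Sox21 (-1.61 to 0.26 without 1 library) and Sox6 (-1.88 to 0.19 without 1 library). The cause was not tested. Sox2, Sox4, Sox11, Sox5, Sox8 and Sox9 kept their sign in all 15 alternatives. Without 1 library the mean log2 ratio of SoxC to SoxB counts differed by 0.42 to 1.46. The scalings of levels were chosen after the data were seen, and library size alone left 0 SOX genes with both neuron libraries higher and 2 with both lower, against 1.72% and 18.4% of all genes. With it the median log2 fold change over all tested genes moved by -0.29, and with log2(RPKM + 0.1) by -0.17. On log2(RPKM + 1) the log2 fold change of Sox5 was 0.037, since that scale understates low values. The low counts of Sox5 and of Sox9 in neuron replicate 2 limit their precision.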
